A study of Mus musculus with 12 samples.

Results

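The genes described are 36 genes of the lysosome and of progranulin, the secreted glycoprotein encoded by Grn. They were chosen by name as a pathway list, with earlier results of these data known. They were matched to the array by gene symbol, with the probe set of highest mean standing for a gene. All 36 were found among 19937 named genes, each with 1 probe set, and 31 of them were among the 11240 genes tested. The filter on low values, which asked for a level over the median of the array on at least 3 arrays, took out Sort1, Gusb, Smpd1, Cd63 and Tfeb. Of the 31 tested members, 29 were over that median on all 12 arrays, so nearly all would have passed the filter whichever group was high.

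The 12 samples, each on its own Affymetrix mouse gene array, were RNA of sorted CD4+ T cells of Peyer's patches, which are lymphoid tissue in the wall of the small bowel, of mice carrying an IL-21eGFP BAC transgene. In such mice an artificial chromosome places enhanced GFP under the control elements of the interleukin 21 gene, and all 4 groups came from this strain. The groups, with 3 arrays each, were GFP+ T follicular helper (Tfh) cells sorted as CXCR5+PD1+, GFP- Tfh cells sorted as CXCR5+PD1+, GFP- CXCR5+PD1- cells and GFP- CXCR5-PD1- cells. The sorted cells were negative for MHC II and Epcam. The labels give no age and do not say whether animals were pooled or whether replicates came from separate animals. They name no sorting scheme for the CXCR5+PD1- cells. The p-values therefore describe no more than array-to-array spread. That spread holds a difference of sex, since Xist marked the third replicates alone as female, and may otherwise be technical.

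Lysosomes are acidic compartments in which proteins, glycans and lipids are broken down, and a proton pump, the V-ATPase, keeps them acidic. Progranulin reaches them through sortilin (Sort1) or together with prosaposin (Psap) and is cut there into granulins, and loss of its gene disturbs lysosomal function in mouse and human. Many lysosomal genes carry a CACGTG E-box near their start, a site bound by the transcription factor TFEB and its relatives. In T cells lysosomes take part in degrading surface receptors and in releasing granule content.

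The labels were first set against the genes of the gates. Il21, Cxcr5 and Pdcd1 were higher in each of the 6 Tfh arrays than in any PD1- array. The characteristics of the GFP+ arrays read CXCR5- and PD1-, against their titles, which the grouping here follows. Cxcr5 did not separate the PD1- gates, with 5.19 to 5.87 in CXCR5+PD1- and 5.36 to 6.19 in CXCR5-PD1- cells. All arrays are labelled as Tfh cells, also those of the PD1- gates. The 7 measured T cell markers lay above the median on every array, and the level of Xist, 10.7 to 11.3 in the third replicates and 4.87 to 5.49 elsewhere, marked 1 female and 2 male arrays in every group. The GFP+ Tfh arrays varied most, with a median SD over the genes tested of 0.261 against 0.155 in GFP- Tfh, 0.133 in CXCR5+PD1- and 0.149 in CXCR5-PD1- cells.

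The main comparison asked how the genes differed between the 6 Tfh arrays and the 6 PD1- arrays, with both gates on each side weighted equally. RNA of progranulin and of a few proteins of the lysosome's lumen and membrane was higher in Tfh cells. That of a cholesterol carrier and of a granule-processing peptidase was lower. In limma, with adjusted p under 0.05 as the threshold over all genes tested, Grn, Ctsb, Lamp2, Ppt1 and Lamp1 rose and Npc2 and Ctsc fell. These are 5 higher and 2 lower of 31 tested members, or 16.1% and 6.45%, where 5.05% of all genes tested were higher and 5.33% lower. The other 24 tested members did not pass. The median difference of the 31 members was 0.10 on the log2 scale, with 21 of them positive. That of all 11240 genes was -0.02, with 46.1% of them positive. The groups did not overlap for 5 of the 31, against 7.56% of all genes tested. Since the array values were made alike in distribution by the submitters, each difference is relative to the bulk of genes.

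**Figure D1:**
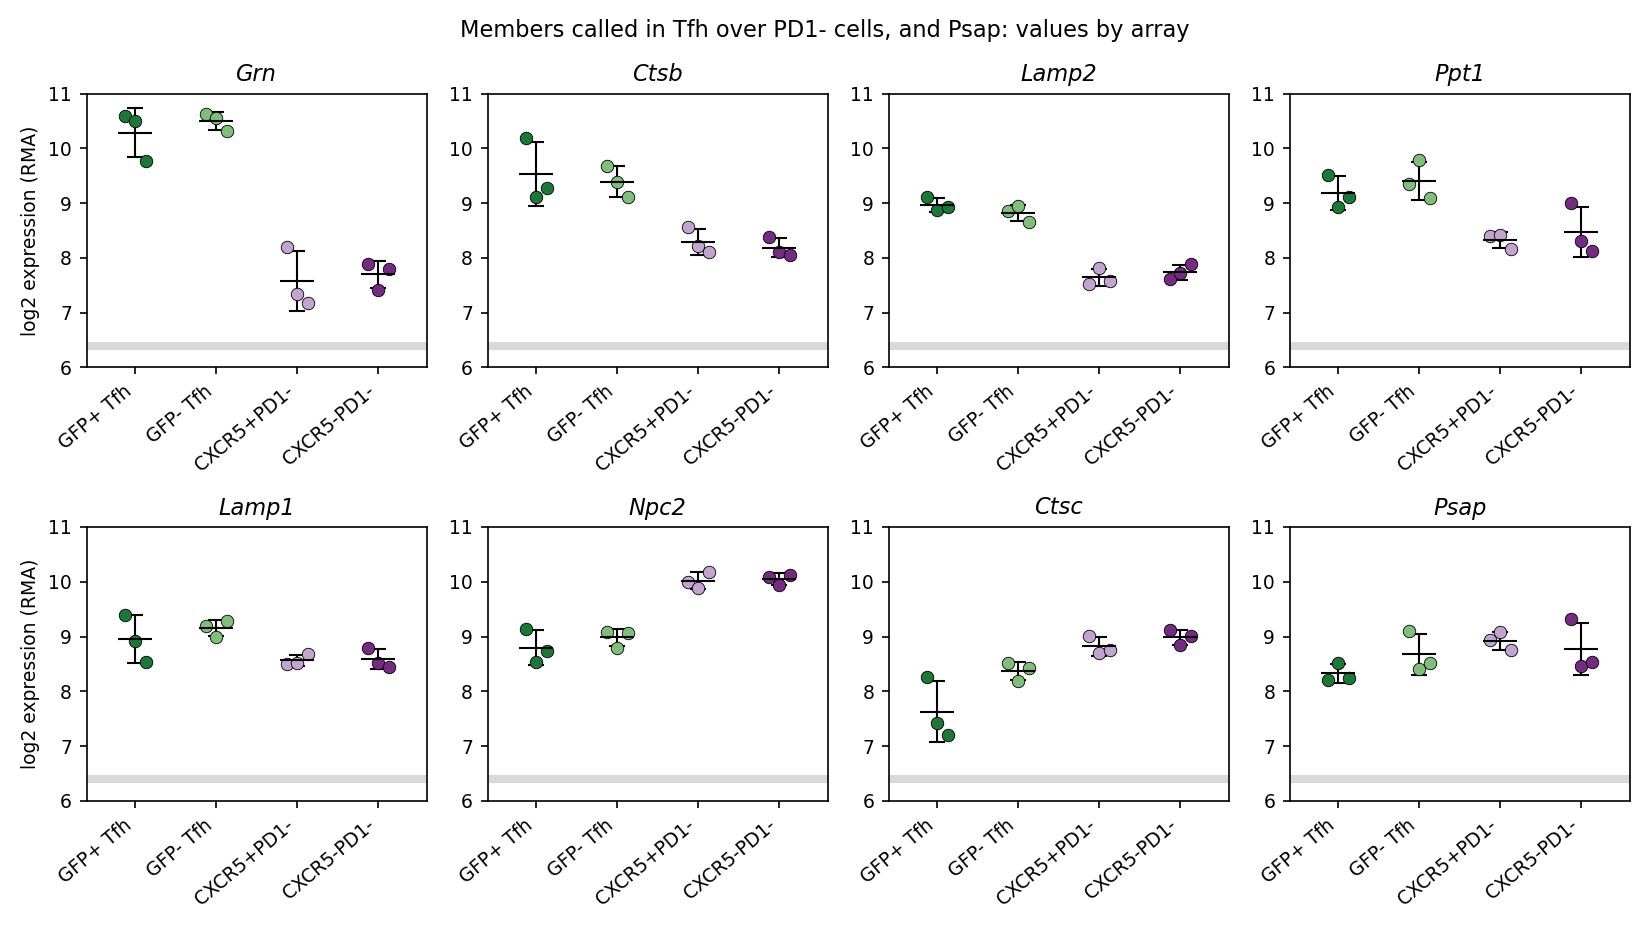
Log2 expression by array (y axis) in the 4 groups (x axis) for the 7 members called in Tfh over PD1- cells and for Psap; points are arrays, bars the group mean ± SD (n = 3), and the grey band the range of array medians (6.34 to 6.45). Grn lies between 9.77 and 10.62 in the 6 Tfh arrays and between 7.17 and 8.20 in the 6 PD1- arrays, whereas Psap overlaps between the groups.

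The RNA of progranulin itself changed most among the members. Grn had log2 levels of 10.58, 10.49 and 9.77 in GFP+ Tfh and 10.62, 10.55 and 10.31 in GFP- Tfh, against 8.20, 7.35 and 7.17 in CXCR5+PD1- and 7.88, 7.42 and 7.80 in CXCR5-PD1- cells. Every Tfh array stood above every PD1- array. The difference was 2.75 ± 0.20 (SE; 95% interval 2.32 to 3.18; limma adjusted p = 4.6e-06), a 6.72-fold higher level, and it ranked 6 from the top of the 11240 genes by size. In the 8 male arrays the difference was 2.85 and in the 4 female arrays 2.55.

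The receptor and the partner that carry progranulin to the lysosome were not called. Sort1 lay below the array median on all 12 arrays and was not tested. Its log2 levels were 5.60, 5.93 and 5.88 in GFP+ Tfh, 5.72, 5.82 and 6.15 in GFP- Tfh, 5.86, 6.02 and 5.79 in CXCR5+PD1- and 5.67, 5.83 and 5.83 in CXCR5-PD1- cells, all overlapping. Psap, the precursor of the saposins that help degrade sphingolipids, had log2 levels of 8.21, 8.52 and 8.25 in GFP+ Tfh and 9.11, 8.41 and 8.51 in GFP- Tfh, against 8.94, 9.08 and 8.76 in CXCR5+PD1- and 9.32, 8.47 and 8.54 in CXCR5-PD1- cells. Its difference of -0.35 ± 0.17 did not pass (limma adjusted p = 0.263), and the upper end of its 95% interval, -0.72 to 0.02, lay far under the difference of Grn.

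The promoter windows of these genes, from 250 bases before to 50 bases after the start in RefSeq (GRCm38.p6), were searched for the E-box CACGTG, which reads the same on both strands, and for TCACGTG on either strand, which contains it. A total of 32 of the 36 members had a window, and Sort1, Ctsb, Npc1 and Atp6v1h were not looked at. The windows of Grn, Lamp2 and Npc2 are shown because these genes had the 3 smallest p-values among the members, and those of Lamp1 and Ctsd because they hold E-boxes, which are in capitals. Grn is at chr11:102430257-102430556 (+ strand), Lamp2 at chrX:38456411-38456710 (- strand), Npc2 at chr12:84773063-84773362 (- strand), Lamp1 at chr8:13158911-13159210 (+ strand) and Ctsd at chr7:142387778-142388077 (- strand), each written 5′ to 3′ on the gene's strand.
Grn: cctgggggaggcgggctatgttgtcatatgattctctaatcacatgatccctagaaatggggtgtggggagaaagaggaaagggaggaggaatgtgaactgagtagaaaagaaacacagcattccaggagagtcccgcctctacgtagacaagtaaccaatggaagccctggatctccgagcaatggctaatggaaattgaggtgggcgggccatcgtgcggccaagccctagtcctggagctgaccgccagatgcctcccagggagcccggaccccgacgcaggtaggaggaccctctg
Lamp2: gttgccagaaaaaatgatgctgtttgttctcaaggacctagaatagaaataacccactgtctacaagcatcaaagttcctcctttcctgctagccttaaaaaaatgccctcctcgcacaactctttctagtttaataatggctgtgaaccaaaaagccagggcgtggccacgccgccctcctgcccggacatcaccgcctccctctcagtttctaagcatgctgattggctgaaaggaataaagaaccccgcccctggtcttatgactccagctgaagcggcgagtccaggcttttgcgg
Npc2: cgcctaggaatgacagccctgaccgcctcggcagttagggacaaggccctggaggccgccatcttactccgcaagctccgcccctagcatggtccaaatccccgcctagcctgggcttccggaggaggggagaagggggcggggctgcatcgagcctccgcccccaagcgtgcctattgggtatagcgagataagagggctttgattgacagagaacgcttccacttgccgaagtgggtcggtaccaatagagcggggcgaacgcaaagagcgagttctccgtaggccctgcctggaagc
Lamp1: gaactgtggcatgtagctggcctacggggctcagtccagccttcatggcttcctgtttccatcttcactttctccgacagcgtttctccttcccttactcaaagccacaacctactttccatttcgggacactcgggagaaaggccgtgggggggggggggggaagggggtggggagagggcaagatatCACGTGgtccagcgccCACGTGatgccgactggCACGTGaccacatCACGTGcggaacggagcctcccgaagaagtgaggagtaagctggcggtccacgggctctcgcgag
Ctsd: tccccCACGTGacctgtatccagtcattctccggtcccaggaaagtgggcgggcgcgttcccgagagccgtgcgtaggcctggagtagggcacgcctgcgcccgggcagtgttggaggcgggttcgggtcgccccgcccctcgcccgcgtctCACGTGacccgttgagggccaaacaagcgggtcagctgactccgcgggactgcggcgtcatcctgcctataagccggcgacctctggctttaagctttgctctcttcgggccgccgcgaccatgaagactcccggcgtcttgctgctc
The window of Lamp1 holds 4 E-boxes, starting 61, 45, 28 and 15 bases before the start, and that of Ctsd holds 2, at 245 and 98 bases before it. Those of Grn, Lamp2 and Npc2 hold no such letters.

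The E-box was found in 10 of the 32 members with a window (31.3%), against 8.09% of all 27025 genes in the table. Among tested genes with a window it was found in 10 of 28 members (35.7%), against 11.6% of all 8971. TCACGTG was found in 9 of the 32 (28.1%), against 4.29% of all genes in the table. Among tested genes with a window it was found in 9 of 28 members (32.1%), against 6.80%. The 10 members were Atp6v0d1, Atp6v1a, Ctsa, Ctsd, Ctsl, Gaa, Gla, Glb1, Lamp1 and Mcoln1, and Ctsl held the E-box without the longer form. Of the members called higher in Tfh cells, 1 of the 4 with a window held an E-box (Lamp1), of those called lower 0 of 2, and of those tested and not called 9 of 22. These counts describe letters in the windows and were not tested against the calls.

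**Figure D2:**
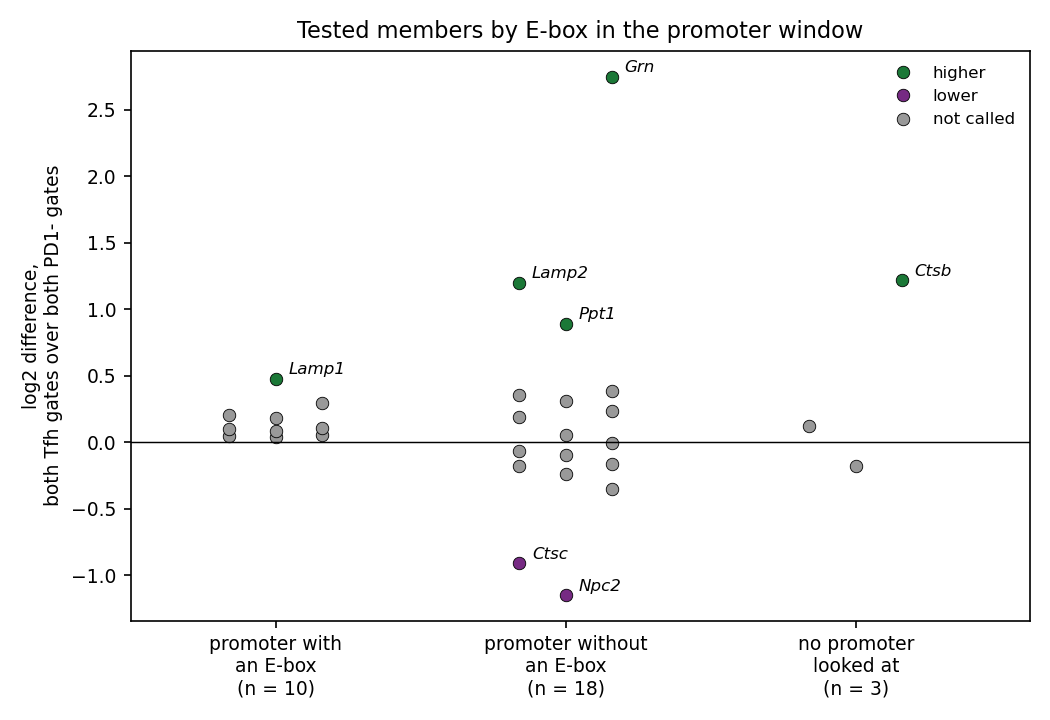
Log2 difference of both Tfh gates over both PD1- gates (y axis) for the 31 tested members, split by whether the promoter window holds the E-box (x axis; 10 of the 28 with a window hold it, and 3 were not looked at); points are genes, coloured by call. Lamp1 is the only called member with an E-box, and Grn, at 2.75, has none.

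Among the peptidases of the lumen, Ctsb rose, Ctsc fell and 6 of the 8 did not pass. Ctsb, the cysteine protease cathepsin B, had log2 levels of 10.20, 9.11 and 9.28 in GFP+ Tfh and 9.67, 9.39 and 9.11 in GFP- Tfh, against 8.56, 8.21 and 8.10 in CXCR5+PD1- and 8.39, 8.11 and 8.06 in CXCR5-PD1- cells. The groups did not overlap, with GFP+ replicate 1 the highest array, and the difference was 1.22 ± 0.18 (2.33-fold; limma adjusted p = 0.0011). Without GFP+ replicate 1 it was 1.05 and still passed.

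Ctsc encodes cathepsin C, the dipeptidyl peptidase that activates granzymes and other granule proteases. Its log2 levels were 8.26, 7.42 and 7.21 in GFP+ Tfh and 8.51, 8.19 and 8.43 in GFP- Tfh, against 9.02, 8.70 and 8.75 in CXCR5+PD1- and 9.12, 8.85 and 9.01 in CXCR5-PD1- cells. All 6 Tfh arrays lay below all 6 PD1- arrays, and GFP+ replicates 2 and 3 were lowest. The difference was -0.90 ± 0.16 (1.87-fold lower; limma adjusted p = 0.00364). With GFP- Tfh alone over the PD1- gates it was -0.53 and did not pass (limma adjusted p = 0.194).

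Genes that mark cytotoxic cells (CD8, NK and gamma delta T) were read beside Ctsc. Of the 9 on the array 6 were tested and 4 of these were not called, with 5.33% of all genes tested called lower. The 2 that fell in limma were Prf1, the pore-forming protein of cytotoxic granules, by 0.62 on the log2 scale, and Cd8b1, a chain of the CD8 receptor, by 0.46. The median difference over the 9 was -0.32, with 9 of 9 values negative, and 3, Klrd1, Klrb1c and Ncr1, which were not tested, lay below the median on every array. The log2 of the summed level of the 9 ranged from 9.07 to 9.27 in GFP+ Tfh, 9.47 to 9.49 in GFP- Tfh, 9.56 to 9.89 in CXCR5+PD1- and 9.59 to 10.16 in CXCR5-PD1- cells. The part of such cells in the fall of Ctsc was not tested. In sorted bulk samples fewer cells of a type and less RNA per cell cannot be told apart.

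The other 6 peptidases did not pass in limma. Ctsd, the aspartic protease cathepsin D, had log2 levels of 8.58, 8.29 and 7.85 in GFP+ Tfh and 8.22, 7.92 and 8.39 in GFP- Tfh, against 8.14, 7.75 and 8.24 in CXCR5+PD1- and 8.28, 7.83 and 8.34 in CXCR5-PD1- cells. Its groups overlapped throughout, with a difference of 0.11 ± 0.15 (limma adjusted p = 0.788). Ctsz, a carboxypeptidase, differed by 0.36 ± 0.12 (limma adjusted p = 0.0836), and Tpp1, which removes tripeptides, by 0.38 ± 0.18 (limma adjusted p = 0.264). Ctss, known for trimming the invariant chain of class II molecules in antigen-presenting cells, differed by -0.23 ± 0.14. Ctsa, a carboxypeptidase that also protects Glb1 and Neu1, and the cysteine protease Ctsl differed by 0.05 each.

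The glycosidases, which remove sugars from glycoproteins, glycolipids and glycogen, held no called member. In limma 0 of them had an unadjusted p under 0.05, against 21.5% of all genes tested. Of the 7, Gusb (beta-glucuronidase) was not tested and the other 6 differed by -0.18 to 0.31. Hexa, the alpha chain of beta-hexosaminidase, had the highest value at 0.31 ± 0.15 (limma adjusted p = 0.279) and Man2b1, the alpha-mannosidase, the lowest at -0.18 ± 0.09 (limma adjusted p = 0.288). Gla (alpha-galactosidase) differed by 0.18, Glb1 (beta-galactosidase) by 0.10, Gaa (the glycogen-degrading alpha-glucosidase) by 0.04 and Neu1 (the sialidase) by -0.06. Gaa lay close to the array median, at mean levels of 6.38 to 6.50 in the 4 groups, where RMA compresses differences.

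The genes of lipid handling went both ways. Npc2, which binds cholesterol in the lumen and hands it to the membrane protein Npc1, had log2 levels of 9.14, 8.53 and 8.73 in GFP+ Tfh and 9.09, 8.80 and 9.06 in GFP- Tfh, against 10.004, 9.88 and 10.18 in CXCR5+PD1- and 10.09, 9.94 and 10.13 in CXCR5-PD1- cells. The groups were well apart, and the difference was -1.15 ± 0.11 (2.21-fold lower; limma adjusted p = 5.54e-05). Npc1 differed by -0.18 ± 0.13 (limma adjusted p = 0.503).

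Ppt1, which removes fatty acids from cysteines of proteins under degradation, had log2 levels of 9.52, 8.92 and 9.10 in GFP+ Tfh and 9.34, 9.78 and 9.09 in GFP- Tfh, against 8.40, 8.41 and 8.16 in CXCR5+PD1- and 8.99, 8.31 and 8.13 in CXCR5-PD1- cells. The groups overlapped through CXCR5-PD1- replicate 1, which stood above GFP+ replicate 2. The difference was 0.89 ± 0.17 (1.86-fold; limma adjusted p = 0.00551), and it was 1.02 without CXCR5-PD1- replicate 1. Lipa, the acid lipase, differed by -0.17 ± 0.35, and its GFP+ replicate 3 stood at 6.42 while every other array lay at 7.91 or above. Smpd1, the acid sphingomyelinase, was below the median on all arrays and was not tested.

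Of the membrane proteins, Lamp2 and Lamp1 rose. These are the abundant glycoproteins that line the lysosomal membrane. Lamp2 had log2 levels of 9.11, 8.87 and 8.92 in GFP+ Tfh and 8.86, 8.94 and 8.65 in GFP- Tfh, against 7.53, 7.82 and 7.58 in CXCR5+PD1- and 7.61, 7.73 and 7.88 in CXCR5-PD1- cells. The 2 sides were far apart beside the spread within groups, and the difference was 1.20 ± 0.09 (2.30-fold; limma adjusted p = 8.28e-06).

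Lamp1 moved less, and its call was less firm. Its log2 levels were 9.40, 8.93 and 8.53 in GFP+ Tfh and 9.19, 8.998 and 9.28 in GFP- Tfh, against 8.51, 8.51 and 8.68 in CXCR5+PD1- and 8.79, 8.52 and 8.45 in CXCR5-PD1- cells. GFP+ replicate 3 fell among the PD1- arrays. The difference was 0.48 ± 0.14 (1.39-fold; limma adjusted p = 0.0445). It was positive in all 25 alternatives and passed in 10 of them, with limma adjusted p from 0.00453 to 0.205.

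Of the other 4 membrane proteins none passed in limma. Laptm5, which in mouse T cells sends the T cell receptor to lysosomes for degradation, differed by 0.24 ± 0.09 (limma adjusted p = 0.12). Scarb2, the receptor that carries beta-glucocerebrosidase to lysosomes, differed by 0.06 ± 0.19 and Laptm4a by -0.10 ± 0.09. The tetraspanin Cd63 was not tested, since it lay above the median on 1 array alone, GFP+ replicate 3, at 7.37 on the log2 scale. The other 11 arrays were at 4.14 to 6.05.

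The gene of the transcription factor TFEB was not tested, and that of the calcium channel Mcoln1 was not called. Tfeb lay below the array median on all arrays, with log2 levels of 5.83, 6.01 and 6.16 in GFP+ Tfh, 5.97, 5.93 and 6.17 in GFP- Tfh, 5.83, 5.94 and 5.66 in CXCR5+PD1- and 5.91, 5.94 and 5.99 in CXCR5-PD1- cells. The groups of Tfeb overlapped. Mcoln1, the channel that releases calcium from lysosomes, differed by 0.09 ± 0.11 (limma adjusted p = 0.763).

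The 5 proton pump members, 4 of them positive, held no called gene in limma. An unadjusted p under 0.05 was found for 0, against 21.5% of all genes tested. Atp6v1a, the catalytic subunit, differed by 0.30 ± 0.16 (limma adjusted p = 0.336) and Atp6v0d1, of the membrane sector, by 0.21 ± 0.15 (limma adjusted p = 0.526). The regulatory subunit Atp6v1h differed by 0.13, the accessory protein Atp6ap1 by 0.19 and Atp6ap2 by 0.00. Over the 24 members tested and not called, the differences ran from -0.35 to 0.38, and the 95% intervals of all 24 lay within 1 log2 unit on either side of 0, from -0.93 to 0.81.

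**Figure D3:**
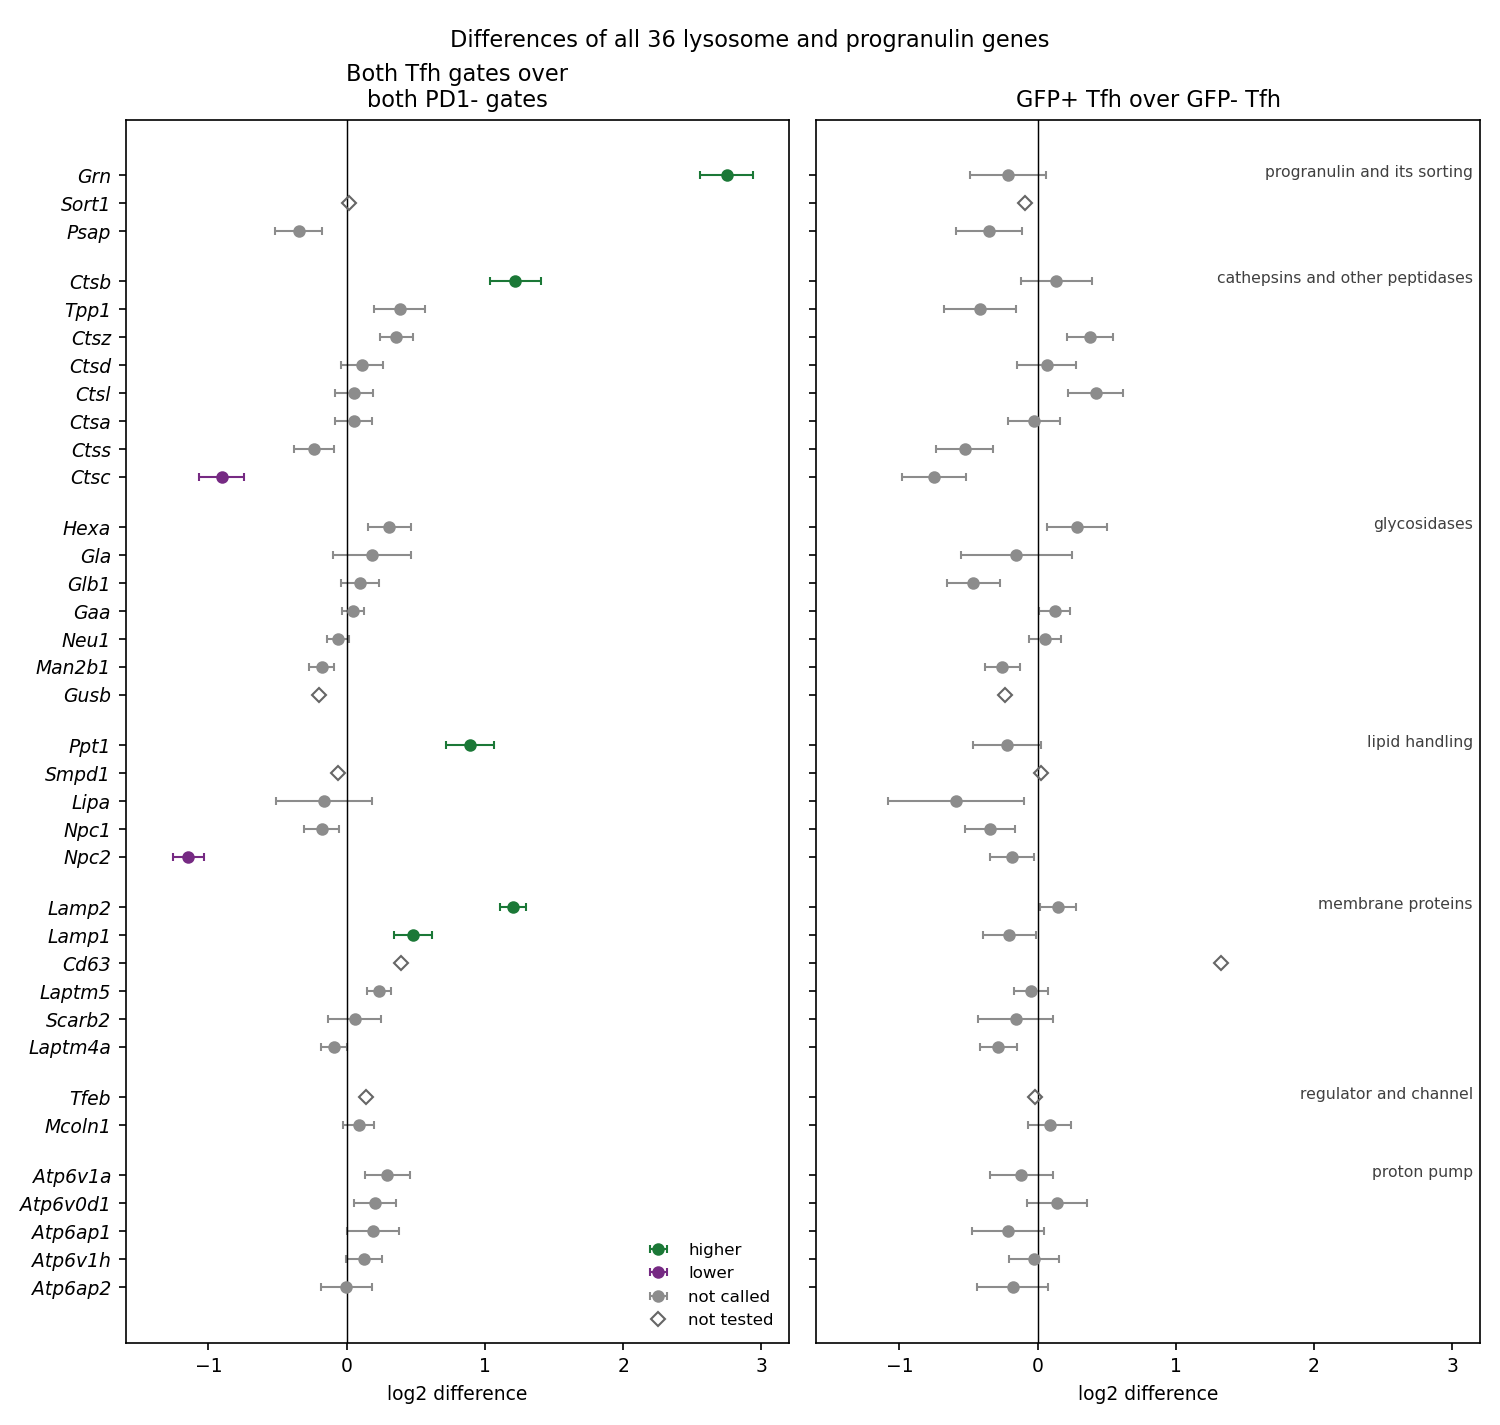
Log2 difference ± SE (x axis) of the 36 members (y axis, by role) for both Tfh gates over both PD1- gates (left) and GFP+ over GFP- Tfh (right); colour gives the call, and open diamonds are the 5 members not tested, drawn without SE. On the left 5 members are called higher and 2 lower, with Grn far to the right at 2.75; on the right 0 members are called.

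The 7 called members had the same sign in the male and in the female arrays. Of the 24 members not called, 15 differed in sign between the sexes, counting Gaa at -0.0 in the male arrays. The female arrays were the third replicates, so sex and replicate cannot be told apart. Lamp2 differed by 1.27 in the male arrays and 1.06 in the female arrays, Ctsb by 1.27 and 1.11, Ppt1 by 0.86 and 0.95, and Lamp1 by 0.55 and 0.34. Npc2 differed by -1.09 in the male arrays and -1.26 in the female arrays, and Ctsc by -0.83 and -1.06. With each replicate left out in turn the number of members called ranged from 6 to 10. The 10 came without GFP+ replicate 3, where Atp6v1a, Laptm5 and Tpp1 joined the 7. With 1 weight per array, which gave GFP+ replicates 1 and 3 low weights of 0.266 and 0.226, 11 members were called.

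Macrophages and other myeloid cells are rich in lysosomes and in progranulin, so their markers were read beside these genes. Of 20 myeloid markers 13 lay below the median on all 12 arrays, among them Csf1r, Itgam, Adgre1, Cd14, C1qa and Spi1. The 5 that were tested did not pass in limma, where 1, Cybb, had an unadjusted p under 0.05, against 21.5% of all genes tested. The log2 of the summed level of the 20 ranged from 10.30 to 10.58 in GFP+ Tfh and 10.47 to 10.60 in GFP- Tfh. It ranged from 10.25 to 10.44 in CXCR5+PD1- and 10.10 to 10.65 in CXCR5-PD1- cells. GFP- Tfh lay above CXCR5+PD1- cells without overlap, and all other pairs of ranges overlapped. Lyz2, the lysozyme of phagocytes, stood at 7.33, 7.64 and 6.27 in GFP+ Tfh and 5.56, 5.83 and 5.72 in GFP- Tfh, against 5.44, 5.92 and 5.45 in CXCR5+PD1- and 6.05, 7.10 and 5.59 in CXCR5-PD1- cells. It was highest in GFP+ replicates 1 and 2. Cybb, of the phagocyte oxidase, stood at 7.95, 6.95 and 5.33 in GFP+ Tfh and 8.62, 8.52 and 8.37 in GFP- Tfh, against 7.42, 5.70 and 7.21 in CXCR5+PD1- and 7.17, 6.06 and 5.43 in CXCR5-PD1- cells. Its highest arrays were those of GFP- Tfh. It differed by 1.13 in Tfh over PD1- cells (limma adjusted p = 0.159) and by -1.76 in GFP+ over GFP- Tfh (limma adjusted p = 0.57). Cd68, itself a lysosomal membrane protein, differed by -0.25 in Tfh over PD1- cells. The part of myeloid cells in the differences of Grn and the other members was not tested. Of the 11 B cell markers on the array 3 were tested, and 1, Pax5, rose by 0.30 (limma adjusted p = 0.0193). Of all genes tested 5.05% were called higher. Over the 11, 5 were positive and 6 negative in Tfh over PD1- cells, with a median difference of -0.01. Of the 5 plasma and germinal centre B cell, 3 epithelial and 6 stromal markers that were tested, 0 passed in limma. At an unadjusted p under 0.05 there were 4 of them, against 21.5% of all genes tested.

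The comparison named as the aim of the series set GFP+ Tfh against GFP- Tfh. None of the 31 tested members passed in limma, with 0.0445% of all genes tested passing, and the lowest adjusted p among them was 0.462. At an unadjusted p under 0.05, 1 member was higher (Ctsz) and 3 lower (Ctsc, Ctss and Glb1), and of all genes tested 214 were higher and 614 lower, 7.37% in all. Differences ran from -0.75 for Ctsc to 0.42 for Ctsl, with a median of -0.16, 21 of 31 negative and 10 positive. The median of all genes was -0.02, with 46.3% of them positive. The members' median was -0.32 without GFP+ replicate 1 and 0.03 without GFP+ replicate 3, so its sign turned with 1 array. The 95% intervals reached from -1.67 to 0.85, so a change of 1 log2 unit was not detectable for every member at this number of arrays.

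Grn differed by -0.21 between the Tfh gates (95% interval -0.82 to 0.39; limma adjusted p = 0.886), with log2 levels of 10.28 ± 0.45 in GFP+ and 10.49 ± 0.16 in GFP- Tfh (SD, n = 3). Ctsc differed by -0.75 ± 0.23 (limma adjusted p = 0.462), at 7.63 ± 0.56 in GFP+ and 8.37 ± 0.17 in GFP- Tfh, with GFP+ replicate 1 among the GFP- arrays. Without that replicate it was -1.06 and passed (limma adjusted p = 0.0131), as did Ctss, and with 1 weight per array it passed also (limma adjusted p = 0.0391). Over the 22 alternatives Ctsc passed in 2. Ctsl was the 1 tested member whose groups did not overlap, against 8.74% of all genes tested, and it was higher in GFP+ Tfh, at 9.35 ± 0.09 against 8.93 ± 0.11 in GFP- Tfh. Gusb, not tested because it lay below the median on all arrays, did not overlap either, at 5.84 to 5.92 in GFP+ and 6.10 to 6.14 in GFP- Tfh.

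The 3 GFP+ arrays differed among themselves in these genes. GFP+ replicate 1 was the highest of the 12 arrays in 11 of the 31 tested members (35.5%), where it was highest in 12.7% of all genes tested. GFP+ replicate 3 was the lowest in 10 (32.3%), against 22.6% of all genes tested, and the highest in 2 (6.45%), against 20.6%. GFP+ replicate 1 was the lowest in 1 member (3.23%), against 17.1% of all genes tested. It stood above GFP+ replicate 3 in 25 of the 31 members, and the share over all genes was not computed. Among the PD1- arrays, CXCR5+PD1- replicate 2 was the lowest of the 12 in 7 members (22.6%), against 4.52% of all genes tested. The median SD of the tested members was 0.368 in GFP+ Tfh, against 0.189 in GFP- Tfh, 0.173 in CXCR5+PD1- and 0.168 in CXCR5-PD1- cells, so differences that include the GFP+ gate rest on the most variable arrays.

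**Figure D4:**
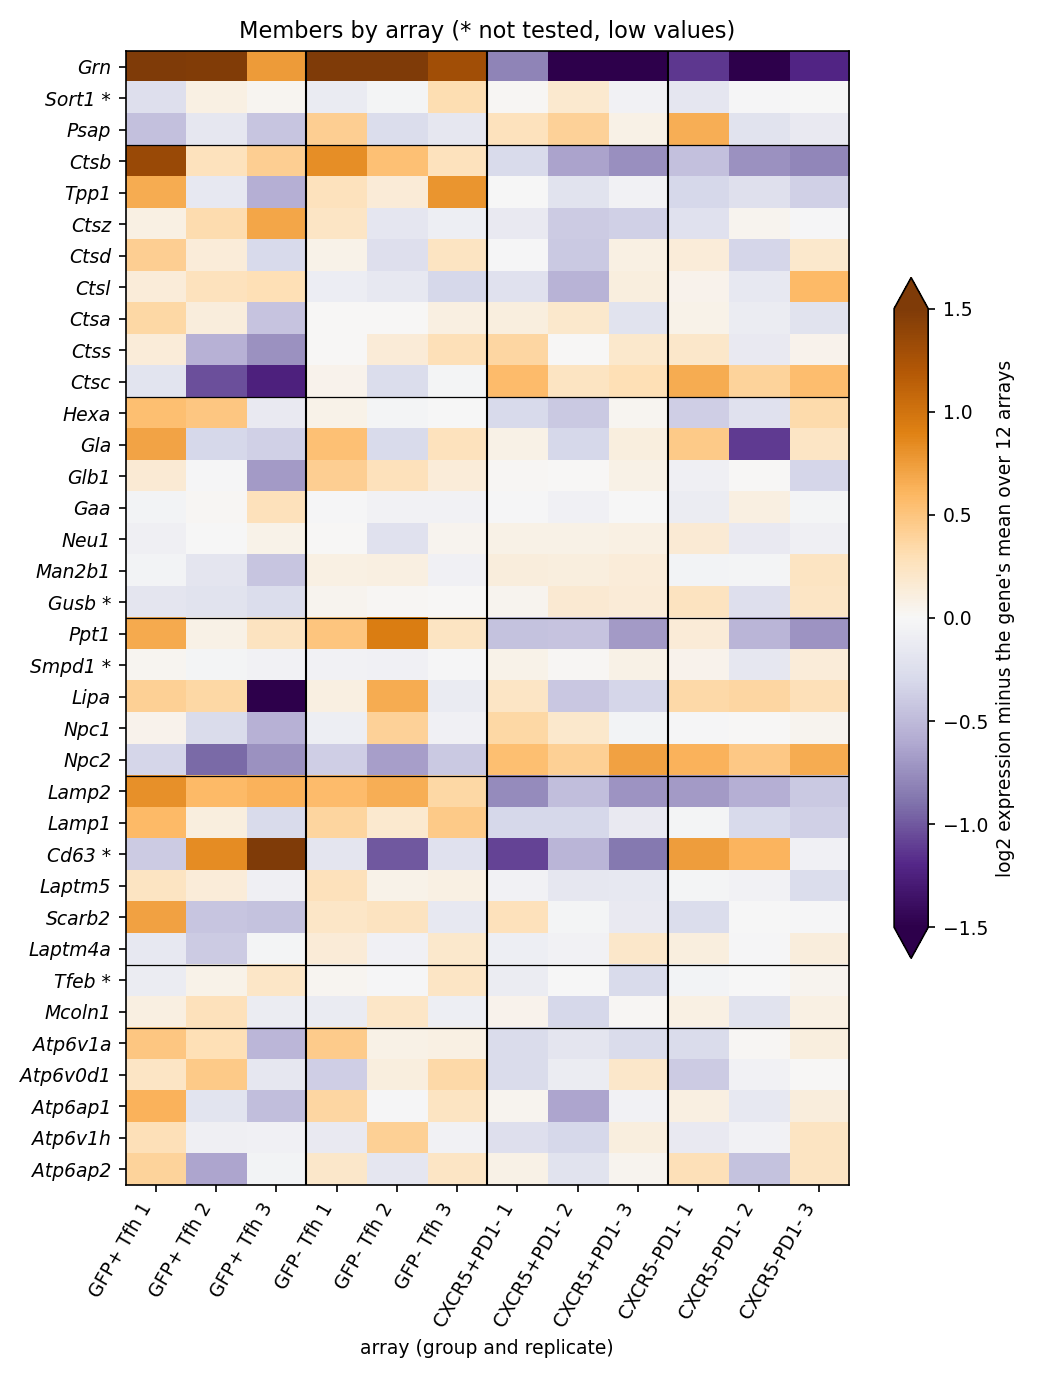
Log2 expression of the 36 members (rows, by role) on the 12 arrays (columns), minus each gene's mean over the arrays; orange is higher and purple lower, and stars mark the 5 members not tested. Grn, Ctsb, Lamp2 and Ppt1 are higher across the Tfh columns and Npc2 and Ctsc lower, while GFP+ replicates 1 and 3 stand apart from each other in many rows.

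The PD1- gates, CXCR5+ against CXCR5-, gave no call among these genes. None of the 31 passed in limma, as 0% of all genes tested did, and 0 members had an unadjusted p under 0.05. At that level 72 of the 11240 genes were higher and 65 lower. Differences ran from -0.50 for Lipa to 0.21 for Tpp1, with a median of -0.03. Lipa and Tpp1 were the 2 tested members whose groups did not overlap, against 8.74% of all genes tested. Cd63, which was not tested, did not overlap either, at 4.14 to 4.69 in CXCR5+PD1- and 5.15 to 5.96 in CXCR5-PD1- cells, all below the array median. Grn differed by -0.13 and Lamp2 by -0.10 between these gates.

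Other genes of the lysosome, from a list of 133 also drawn up with earlier results known, were read in the same fits. Of the 98 tested, 10 were higher and 5 lower in Tfh over PD1- cells, or 10.2% and 5.10%, against 5.05% and 5.33% of all genes tested. In limma 0 passed in the other comparisons. At an unadjusted p under 0.05, 2 of them were higher and 6 lower in GFP+ over GFP- Tfh, where 214 and 614 of all 11240 genes were, and 0 reached it in CXCR5+PD1- over CXCR5-PD1-. In the sorting of enzymes, Gnptab, the enzyme that starts the mannose 6-phosphate tag of lysosomal enzymes, rose by 0.999 ± 0.168 (limma adjusted p = 0.00233), while Igf2r, the receptor that reads the tag, fell by 0.51 ± 0.10 (limma adjusted p = 0.00607). Gnptab stood at 8.36 ± 0.41 in Tfh and 7.36 ± 0.08 in PD1- cells, and Igf2r at 7.54 ± 0.28 in Tfh and 8.05 ± 0.06 in PD1- cells (SD, n = 6). Ap3b1, a subunit of the adaptor that sorts lysosomal membrane proteins, rose by 0.61 ± 0.07. Vps29, of the retromer that returns receptors from endosomes, rose by 0.50 ± 0.10, and Vamp8, a fusion protein of late endosomes, by 0.89 ± 0.11.

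Inhibitors and other hydrolases also moved. Cstb, the cytosolic inhibitor of cathepsins, rose by 0.79 ± 0.10 (limma adjusted p = 0.000291), to 8.83 ± 0.17 in Tfh against 8.04 ± 0.19 in PD1- cells. Acp5, an acid phosphatase, fell by 1.06 ± 0.10 (limma adjusted p = 2.85e-05), and Ctsw, a cathepsin of cytotoxic lymphocytes, by 1.02 ± 0.17 (limma adjusted p = 0.00217). Sorl1, a sorting receptor of sortilin's family, fell by 0.45 ± 0.08, and Ctns, the cystine exporter, by 0.80 ± 0.21. The last 5 genes higher were named after their values were seen. Cst7, an inhibitor of Ctsc and other cathepsins, rose by 1.03 ± 0.27 and Tmem106b, a lysosomal membrane protein studied with progranulin in dementia, by 0.68 ± 0.18 (limma adjusted p = 0.0326). Tfe3, a relative of Tfeb, rose by 0.32 ± 0.09 (limma adjusted p = 0.0394), Rragc, a GTPase that signals nutrients at the lysosome, by 0.56 ± 0.13 and Atp6v1d, a pump subunit, by 0.45 ± 0.12.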

How the data were processed

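Members and lists were chosen with earlier results of these data known. The authors deposited log2 expression values for 34760 probe sets on 12 arrays, and the submitters' processing notes name RMA and oligo as tools; versions and the genome build are not given in the sources used here. RMA subtracts background, makes the arrays' distributions alike and compresses low signals. All 12 columns were matched to a sample by title, and 0 were left unmapped.

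Of the probe sets, 21640 had 1 gene symbol in the platform annotation, 21553 of them updated by gene identifier through RefSeq GRCm38.p6, while 1321 had several and 11799 were unnamed here. The probe set of highest mean stood for a gene. Genes above the array median on at least 3 arrays were tested in 1 linear model of the 4 groups (lmFit and eBayes of limma 3.58.1, under R 4.3.3, with 8 residual degrees of freedom), with Benjamini-Hochberg adjustment over 11240 genes at 0.05. The code was tested on simulated data. The comparison of Tfh with PD1- cells and that of the PD1- gates share the PD1- arrays. In the same way, the comparison of Tfh with PD1- cells shares the Tfh arrays with that of GFP+ and GFP- Tfh. The number of arrays limits the precision.

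Members called in a comparison, and Sort1, Psap, Ctsd and Tfeb whatever their values, are given per array. Of other lysosomal genes, the 5 higher and 5 lower with the smallest p are named, except where said. Same-numbered arrays of CXCR5+PD1- and CXCR5-PD1- cells deviated together (correlations 0.210 to 0.353); in the other pairs of groups at least 1 correlation was below 0.1. Alternatives changed the filter, moderation, weights, normalization, blocks, probe set rule, gates and arrays.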

Additional observations from a re-analysis of the deposited data

How the results depend on the processing

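The 7 calls in Tfh over PD1- cells were recomputed under 25 alternatives. Grn, Ctsb, Lamp2, Ppt1 and Npc2 passed in all 25, Ctsc in 24 and Lamp1 in 10, and no value of these 7 changed sign. The genes called, 1167, became 1981 with 1 weight per array. They became 639 with GFP- Tfh alone, 750 over CXCR5-PD1- alone and 698 over CXCR5+PD1- alone, each with 1 gate left out of the contrast. Members called became 11 with 1 weight per array, adding Atp6v1a, Ctsz, Hexa and Laptm5. Leaving out a replicate gave 880 to 1499 genes, 6 to 10 members and a member median of 0.03 to 0.21. In GFP+ over GFP- Tfh the 5 genes called became 3 with 1 weight per group, 95 with 1 weight per array and 0 with the 2 groups alone, and members called became 1 (Ctsc) with 1 weight per array. Leaving out a replicate gave 3 to 237 genes, 0 to 2 members and a median of -0.32 to 0.03, the highest counts without GFP+ replicate 1. In CXCR5+PD1- over CXCR5-PD1- every alternative called 0 genes. The replicate block left 7 members called in Tfh over PD1- cells and 0 in the other comparisons. Causes of these changes were not tested. With 3 arrays a group and the GFP+ arrays the most variable, small changes between the Tfh gates are out of reach, and members near the array median have compressed differences.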
